A study of Homo sapiens with 6 samples.

Results

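S100A transcripts were measured in MCF10A, an established benign mammary epithelial cell line of basal character, with and without overexpression of GIRK1, the subunit of G-protein activated inwardly rectifying K+ channels that KCNJ3 encodes. The 10 genes S100A2, S100A4, S100A6, S100A7, S100A8, S100A9, S100A10, S100A11, S100A14 and S100A16 were taken by symbol from the 20802 genes of an amplicon panel that carries 1 amplicon per gene. By their labels, the 6 libraries comprised 2 of wild type (wt) MCF10A and 2 of MCF10A stably transfected with an eGFP vector (eGFP). The other 2 were of MCF10A stably transfected with the same vector carrying the GIRK1 coding sequence (GIRK1). The eGFP and GIRK1 lines shared the vector backbone, G418 selection and sorting on eGFP fluorescence, none of which the wt cells had undergone, so that eGFP was the control for the vector. All cells were harvested at 70 to 80% confluence. Nothing stated that replicates came from separate cultures, so that p-values measure only the spread between these libraries, which may be technical.

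S100 proteins are small dimeric proteins with a pair of EF-hand calcium-binding loops; on binding calcium they expose a surface that docks on target proteins. Many act inside the cell on the cytoskeleton, on annexins or on p53, and some are also released and signal through receptors such as RAGE and TLR4. Most of their genes lie together on chromosome 1 in and beside the epidermal differentiation complex, the gene cluster of the cornified envelope, and several are well known from keratinocytes and from basal breast epithelium.

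The libraries held 2506120 to 16040556 reads, and levels are given as reads per 1000000 reads of the library (RPM). GIRK1 mRNA (KCNJ3) had 217 and 355 RPM in the GIRK1 libraries and 0 reads in eGFP replicate 1, eGFP replicate 2 and wt replicate 2, whereas the library labelled wt replicate 1 had 19.2 RPM. That library went against its label. Basal epithelial markers summed to 403 RPM in it and to between 10532 and 19091 RPM in the other 5 libraries, with KRT14, KRT6A and KRT17 at 0 reads. Markers of estrogen receptor positive luminal epithelium summed to 19217 RPM in it and to between 531 and 1029 RPM in the others, where ESR1, PGR, KRT19 and TFF1 had 0 reads. TP63, a defining basal factor, had 0 reads in every library. Over 9212 genes the SD of the log2 ratio was 1.68 to 1.72 between the library labelled wt replicate 1 and each other library, compared to 0.31 between wt replicate 2 and eGFP replicate 2, 0.33 between the GIRK1 libraries and 0.62 between the eGFP libraries. Results were therefore drawn from the other 5 libraries, and the library labelled wt replicate 1 is set beside them at the end. The names of the deposited data carried one tag for the GIRK1 libraries and another for the other 4, so that GIRK1 and whatever the tag marks cannot be told apart.

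All 10 genes lie on chromosome 1 between 151982915 and 153616986 (GRCh38, GENCODE), an interval of 1634 kb. S100A10 and S100A11 form a pair that is separated by 1309.9 kb from the other 8, which follow in the order S100A9, S100A8, S100A7, S100A6, S100A4, S100A2, S100A16 and S100A14. The 120 bases before a RefSeq transcription start (GRCh38.p14) are shown for 5 of them and for S100P, a family member on chromosome 4 whose level went the other way. A single start was used for each of these genes, and their other starts were not searched. S100A4, S100A9, S100A8 and S100A2 are shown as lower genes with and without a TATA box before that start, and S100A11 as the gene that did not follow them. Capitals mark a TATA box (TATAAA), an AP-1 motif (TGANTCA), a C/EBP motif (TTGCNNAA) or a GC box (GGGCGG), each searched on both strands.
S100A4 (chr1:153545807-153545926, minus strand): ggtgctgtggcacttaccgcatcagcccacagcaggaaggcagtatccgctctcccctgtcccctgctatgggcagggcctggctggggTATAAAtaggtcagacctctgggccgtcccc
S100A9 (chr1:153357734-153357853, plus strand): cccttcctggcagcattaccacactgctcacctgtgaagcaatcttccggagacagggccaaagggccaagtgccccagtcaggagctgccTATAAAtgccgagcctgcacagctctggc
S100A8 (chr1:153391189-153391308, minus strand): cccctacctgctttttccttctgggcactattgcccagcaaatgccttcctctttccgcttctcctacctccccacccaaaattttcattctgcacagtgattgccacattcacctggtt
S100A2 (chr1:153565845-153565964, minus strand): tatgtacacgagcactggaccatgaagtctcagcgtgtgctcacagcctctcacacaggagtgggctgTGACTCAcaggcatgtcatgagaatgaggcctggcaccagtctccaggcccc
S100A11 (chr1:152037005-152037124, minus strand): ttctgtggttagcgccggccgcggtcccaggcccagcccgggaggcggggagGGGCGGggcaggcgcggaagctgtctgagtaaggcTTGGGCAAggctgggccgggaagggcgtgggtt
S100P (chr4:6693758-6693877, plus strand): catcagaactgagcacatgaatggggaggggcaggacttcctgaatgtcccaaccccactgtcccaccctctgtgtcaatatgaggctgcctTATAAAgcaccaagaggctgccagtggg
S100A4, S100A7, S100A9 and S100P held TATAAA at 31, 28, 29 and 28 bases before the start, a spacing of 25 to 35 bases that 2.17% of 35116 RefSeq promoters showed. S100A2 held an AP-1 motif at 52 bases (6.57% of promoters hold one within 250 bases), and S100A11 a C/EBP motif at 33 bases (9.05%) besides a GC box (42.6%). S100A8, S100A14 and S100A16 held none of these letters within 250 bases of the start used. S100A8 and S100A9, whose levels went together, thus did not share any of the 4 motifs before these starts, and other starts could differ. These matches describe the letters only.

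In order to see how GIRK1 overexpression went along with S100A expression, GIRK1 was compared to eGFP. 8 of the 9 S100A genes with reads were lower in both GIRK1 libraries than in both eGFP libraries, by fitted folds of 1.60 to 7.52, and 1 gene, S100A11, was higher in both. In such bulk libraries, fewer cells of a kind and less RNA per cell cannot be told apart. Of all 11279 genes tested, 25.2% were lower in this sense. None of the 9 passed an adjusted p of 0.05 in edgeR's quasi-likelihood test (0.745% of all genes passed as lower and 1.52% in either direction), while 8 of 9 had an unadjusted p below 0.05, all of them lower (10.8% of all genes). The median log2 fold change was -1.36 over the 9 genes and 0.01 over all genes tested. DESeq2 called 6 of the 9 lower, namely S100A2, S100A4, S100A8, S100A9, S100A10 and S100A14, and it called 6.15% of all genes in either direction. The fitted sizes in edgeR depended on the eGFP libraries. A fit without 1 of them leaves 1 eGFP library and takes its spread from the GIRK1 pair, so that effect sizes alone are given. The 8 lower genes had log2 fold changes from -1.78 (S100A4) to -0.46 (S100A2) without eGFP replicate 1, and from -3.55 (S100A4) to -0.72 (S100A16) without eGFP replicate 2.

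**Figure D1:**
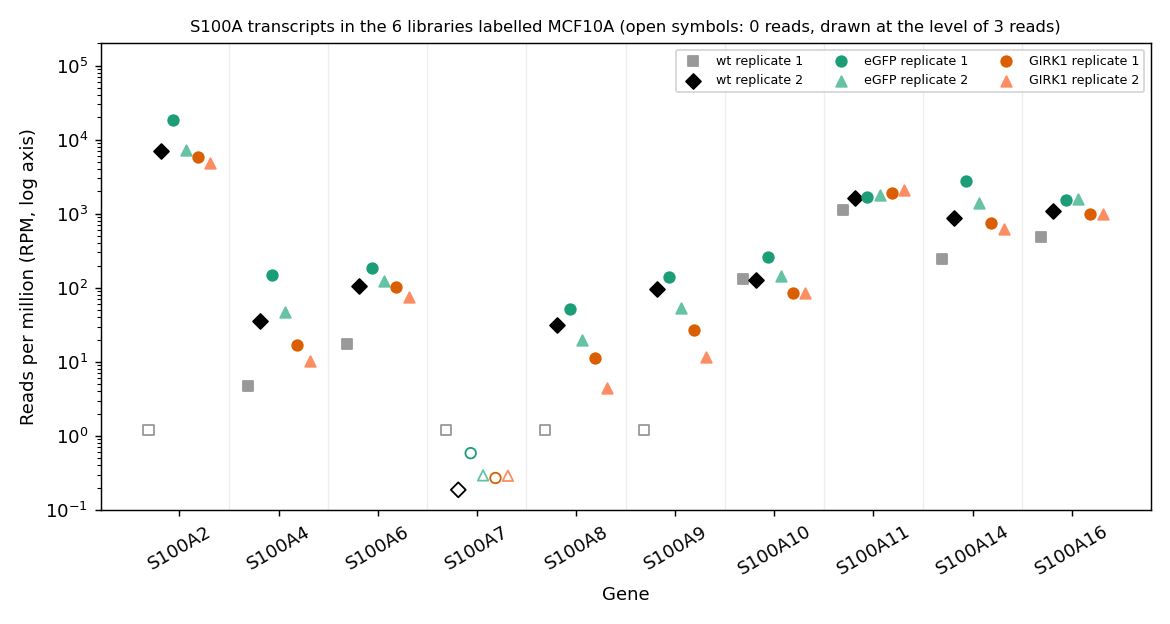
RPM (log axis) of the 10 S100A genes, each symbol being 1 library, with open symbols for 0 reads drawn at the level of 3 reads. In 8 genes the GIRK1 symbols lie below those of both eGFP libraries and of wt replicate 2, S100A7 has no read in any library, and S100A2, S100A8 and S100A9 have none in the library labelled wt replicate 1.

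S100A4, also known as metastasin, binds non-muscle myosin and is known for its part in cell motility. It had 148 and 47.1 RPM in the eGFP libraries, 35.4 RPM in wt replicate 2, and 16.8 and 10.3 RPM in the GIRK1 libraries. The groups did not overlap, although the eGFP libraries differed by 3.15-fold. The fitted log2 fold change, GIRK1 against eGFP, was -2.91 ± 0.59 (SE), with an adjusted p of 0.0776 in edgeR (unadjusted p = 0.00193), the smallest of the 9 genes. Against eGFP replicate 2 alone the GIRK1 libraries were 2.80- and 4.55-fold lower, and without eGFP replicate 1 the fitted log2 fold change was -1.78.

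S100A8 and S100A9 form calprotectin, a heterodimer that binds zinc and other metals, is abundant in neutrophils and is induced in activated epithelium. S100A8 had 52.5 and 19.6 RPM in the eGFP libraries, 31.0 RPM in wt replicate 2, and 11.2 and 4.4 RPM in the GIRK1 libraries. S100A9 had 137.9 and 53.9 RPM in the eGFP libraries, 97.6 RPM in wt replicate 2, and 26.7 and 11.7 RPM in the GIRK1 libraries. The 46 reads of S100A8 in GIRK1 replicate 2 were the fewest of these and leave an exact 95% interval of 3.25 to 5.93 RPM, which covers counting error only. Both genes were lowest in the GIRK1 libraries, and within each pair of replicates both were over 2-fold higher in replicate 1. Their log2 fold changes, GIRK1 against eGFP, were -2.26 ± 0.61 (SE) for S100A8 (edgeR adjusted p = 0.130) and -2.38 ± 0.57 (SE) for S100A9 (edgeR adjusted p = 0.105). The ratio of S100A8 to S100A9 reads stayed between 0.318 and 0.418 in the 5 libraries. Without eGFP replicate 1 the log2 fold changes were -1.32 for S100A8 and -1.48 for S100A9.

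Leukocyte markers were read beside this pair. PTPRC, MPO, LYZ and FCGR3B had 0 reads in all 6 libraries. The 8 markers of the list summed to 37.6 and 25.4 RPM in the eGFP libraries, 13.6 RPM in wt replicate 2 and 16.1 and 11.7 RPM in the GIRK1 libraries, nearly all of it from CD14 and ITGB2. ITGB2 had 15.6 and 4.5 RPM in the eGFP libraries, 6.1 RPM in wt replicate 2, and 0.18 and 0.19 RPM in the GIRK1 libraries. CD14 had 21.65 and 20.9 RPM in the eGFP libraries, 7.1 RPM in wt replicate 2, and 15.7 and 11.3 RPM in the GIRK1 libraries. The part of these cells in the difference was not tested beyond those markers at 0. Of 7 fibroblast markers, COL1A2 and THY1 had 0 reads in all 6 libraries. The list summed to 10.7 and 8.6 RPM in the eGFP libraries, 13.7 RPM in wt replicate 2 and 31.9 and 33.5 RPM in the GIRK1 libraries, and so was higher in GIRK1. DCN made most of this, with 0.78 and 3.7 RPM in eGFP, 10.2 RPM in wt replicate 2 and 27.0 and 25.2 RPM in GIRK1, and the part of this in the S100A levels was not tested.

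S100A2 is a p63 and p53 target of basal and squamous epithelium, and its amplicon took 55.1 to 73.4% of all S100A reads in the 5 libraries. It had 18503 and 7330 RPM in the eGFP libraries, 6980 RPM in wt replicate 2, and 5783 and 4774 RPM in the GIRK1 libraries. Its log2 fold change, GIRK1 against eGFP, was -1.36 ± 0.45 (SE) with an edgeR adjusted p of 0.185. This size rested on eGFP replicate 1, since against eGFP replicate 2 the GIRK1 libraries were 1.27- and 1.54-fold lower and the fit without eGFP replicate 1 gave -0.46.

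S100A14 is an epithelial S100 protein that can bind RAGE. It had 2741 and 1400 RPM in the eGFP libraries, 879 RPM in wt replicate 2, and 752 and 613 RPM in the GIRK1 libraries. The log2 fold change, GIRK1 against eGFP, was -1.66 ± 0.37 (SE) with an edgeR adjusted p of 0.0927, and without eGFP replicate 1 it was -1.03. S100A16, its neighbour at a distance of 1.1 kb, had 1513 and 1569 RPM in the eGFP libraries, 1093 RPM in wt replicate 2, and 992 and 982 RPM in the GIRK1 libraries. Replicates of S100A16 lay close together, with coefficients of variation of 0.0259 in eGFP and 0.00682 in GIRK1, and its log2 fold change was the smallest of the 8 lower genes (-0.68 ± 0.20, SE; edgeR adjusted p = 0.148). For S100A14 the eGFP libraries differed by 1.96-fold and wt replicate 2 lay nearer to GIRK1 than to eGFP.

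S100A10 (p11) forms a heterotetramer with annexin A2 and serves in plasminogen activation and in the transport of channels to the membrane. It had 258 and 143.1 RPM in the eGFP libraries, 126 RPM in wt replicate 2, and 86.2 and 85.3 RPM in the GIRK1 libraries, with a log2 fold change of -1.28 ± 0.33 (SE, edgeR adjusted p = 0.120). Without eGFP replicate 1 S100A10 had a smaller log2 fold change of -0.73. S100A6 (calcyclin), which is linked to proliferating cells and binds CACYBP and annexin A11, had 187 and 124 RPM in eGFP, 106 RPM in wt replicate 2, and 103 and 74.4 RPM in GIRK1. Its log2 fold change was -0.86 ± 0.30 (SE, edgeR adjusted p = 0.199), and the gap between wt replicate 2 and the nearer GIRK1 library was smaller than the gap between the GIRK1 libraries.

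S100A11 (calgizzarin), which binds annexin A1, was the exception. It had 1684 and 1788 RPM in the eGFP libraries, 1649 RPM in wt replicate 2, and 1908 and 2106 RPM in the GIRK1 libraries. Both GIRK1 libraries were thus above the 3 controls, as was the case for 21.7% of all genes. The log2 fold change was 0.17 ± 0.20 (SE) and did not pass the test (edgeR adjusted p = 0.677, unadjusted p = 0.433). S100A7 (psoriasin), an antimicrobial protein of inflamed epithelium, had 0 reads in all 6 libraries, which allows up to 0.187 RPM in the deepest library and up to 1.20 RPM in the shallowest (3 reads, counting error only).

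**Figure D2:**
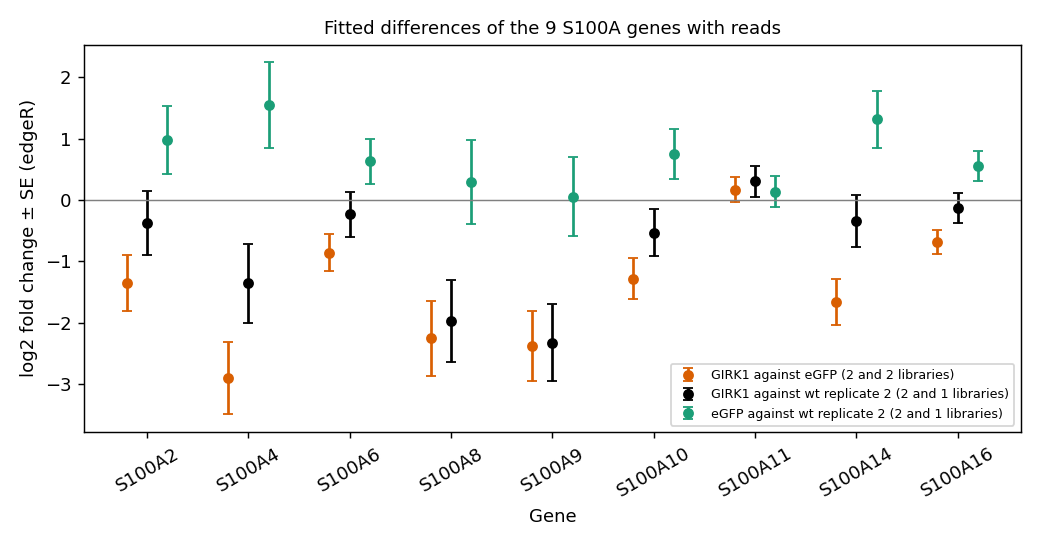
Fitted log2 fold changes (points) with SE (bars) of the 9 S100A genes with reads, for GIRK1 against eGFP, GIRK1 against wt replicate 2 and eGFP against wt replicate 2. Of the GIRK1 values 8 of 9 are below 0 against either control, and all 9 eGFP values against wt replicate 2 are above 0. The comparisons share libraries.

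The libraries were then ranked within each gene. In 7 of the 9 genes, all except S100A11 and S100A16, the libraries ranked, from the highest level down, as eGFP replicate 1, eGFP replicate 2, GIRK1 replicate 1 and GIRK1 replicate 2, a ranking that 9.8% of all genes tested showed. eGFP replicate 1 was the highest of all 6 libraries for the same 7 genes (15.5% of all genes). It was also the library with the highest sum of basal markers, 19091 RPM compared to at most 12915 RPM elsewhere, and the part of this in the S100A levels was not tested. Summed over the 10 genes, S100A transcripts reached 25226 and 12475 RPM in eGFP, 10997 RPM in wt replicate 2, and 9678 and 8662 RPM in GIRK1. At least 2-fold between the eGFP libraries were S100A2, S100A4, S100A8 and S100A9, all higher in replicate 1 (4 of 9, compared to 5.53% of all genes), and between the GIRK1 libraries S100A8 and S100A9, both higher in replicate 1 (2.63% of all genes). By the kind of rule the study used, means at least 2-fold apart and replicates whose coefficient of variation (SD over mean) stays under 0.7, 5 of the 9 were lower in GIRK1 (S100A2, S100A8, S100A9, S100A10 and S100A14, against 5.38% of all genes). S100A4 missed that rule because the coefficient of variation of its eGFP libraries was 0.733.

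When GIRK1 was compared to wt replicate 2, the same 8 genes were lower in both GIRK1 libraries, so that 8 of 9 lay below all 3 controls (19.5% of all genes). These differences were small except for S100A4, S100A8 and S100A9. For these 3 genes each GIRK1 library was at least 2-fold below wt replicate 2, as were 4.57% of all genes for GIRK1 replicate 1 and 5.49% for replicate 2. None of the 9 passed an adjusted p of 0.05 (0.229% of all genes did in either direction), and S100A8 and S100A9 alone had an unadjusted p below 0.05 (3.62% of all genes as lower). Their log2 fold changes were -1.97 ± 0.67 (SE, edgeR adjusted p = 0.560) and -2.33 ± 0.62 (SE, edgeR adjusted p = 0.400). S100A4 had -1.36 ± 0.64 (SE, edgeR unadjusted p = 0.0721). The other 6 genes lay between -0.53 for S100A10 and 0.31 for S100A11. wt was 1 library in this fit and was assumed to vary like the other groups. DESeq2 called 1 of the 9 lower, S100A9 (DESeq2 adjusted p = 0.00724), and 1.15% of all genes in either direction. Over the main fit and its alternatives, the fit with both wt libraries included, S100A4 ran from -2.03 to -0.58. S100A8 ran from -2.84 to -1.04 and S100A9 from -3.11 to -1.35.

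The controls were then set against each other. The fitted log2 fold changes, eGFP against wt replicate 2, were above 0 for all 9 genes, with a median log2 fold change of 0.63 compared to 0.01 over all genes tested, of which 51.2% were above 0. None of the 9 and none of the 11779 genes passed an adjusted p of 0.05 in edgeR (0% of all genes), 418 genes had an unadjusted p below 0.05, and among the 9 this held for S100A14 alone as higher (2.15% of all genes), with 1.32 ± 0.46 (SE, edgeR unadjusted p = 0.0251). DESeq2 called 5 genes in this comparison, none of them S100A. The eGFP libraries were unequal in this, since eGFP replicate 1 was at least 2-fold above wt replicate 2 for S100A2, S100A4, S100A10 and S100A14 (7.23% of all genes), whereas eGFP replicate 2 was so for none of the 9 (1.77%). A fit without 1 of the eGFP libraries sets 1 library against 1, so that effect sizes alone are given. Without eGFP replicate 1 the sign turned for S100A8 (-0.66) and S100A9 (-0.86). In 6 genes, S100A2, S100A4, S100A6, S100A10, S100A14 and S100A16, wt replicate 2 lay between the GIRK1 and the eGFP libraries, as for 9.75% of all genes. For S100A8 and S100A9 wt replicate 2 instead lay between the eGFP libraries.

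Other members of the family were read beside the 10. S100P, a calcium-binding protein that binds ezrin and RAGE, went in the opposite direction. It had 1.6 and 7.1 RPM in the eGFP libraries, 19.3 RPM in wt replicate 2, and 46.0 and 60.2 RPM in the GIRK1 libraries. The log2 fold change, GIRK1 against eGFP, was 3.48 ± 0.54 (SE) and passed the test (edgeR adjusted p = 0.0386), on 8 and 73 reads in the eGFP libraries. The call was lost with wt replicate 2 pooled into the controls, at a log2 fold change of 2.43. With all 6 libraries in the fit (3.56) 0 of 11546 genes passed, so that losing the call there was not particular to S100P. The log2 fold change was 2.91 without eGFP replicate 1 and 4.98 without eGFP replicate 2. It was 1.48 ± 0.60 against wt replicate 2 alone (SE, edgeR adjusted p = 0.661). S100A3, a gene between S100A4 and S100A2, had 36 and 38 reads in eGFP and 17 and 13 in GIRK1, with a log2 fold change of -1.95 and an unadjusted p below 0.05 in edgeR (adjusted p = 0.129). S100A13, which takes part in the release of FGF1, and S100PBP, the binding protein of S100P, had log2 fold changes of -0.43 and -0.60 that did not pass the test (edgeR adjusted p = 0.322 and 0.316). Without eGFP replicate 2 S100A3 and S100PBP had -2.42 and -0.88. Of 12 such genes 4 were tested, 1 passed as higher and 0 as lower, with a median of -0.51, and 4 had no read in any library.

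Annexins, calcium-dependent membrane-binding proteins of which several are partners of S100 dimers, came next. All 8 tested of 14 listed had a fitted level below that of eGFP (48.9% of all genes tested), 0 passed an adjusted p of 0.05, and 3 had an unadjusted p below 0.05 (10.8% of all genes as lower). The median log2 fold change was -0.57. Over the main fit and its alternatives, ANXA2 ran from -1.66 to -0.71, ANXA3 from -1.33 to -0.64 and ANXA6 from -2.32 to -1.56. ANXA4 ran from -0.88 to -0.11, ANXA5 from -0.87 to -0.08 and ANXA11 from -0.90 to -0.25. ANXA2, the partner of S100A10, had 44.9 and 25.1 RPM in eGFP, 32.2 RPM in wt replicate 2, and 16.7 and 13.7 RPM in GIRK1 (log2 fold change -1.24, edgeR adjusted p = 0.143). ANXA3 and ANXA6 had -1.02 and -1.94 (edgeR adjusted p = 0.132 and 0.105), although ANXA6 lay at 2.8 RPM in wt replicate 2, close to the higher GIRK1 library at 2.4 RPM. ANXA1, the partner of S100A11, had 747 and 776 RPM in eGFP and 690 and 791 RPM in GIRK1, so that the groups overlapped (-0.08, edgeR adjusted p = 0.856). ANXA11, the partner of S100A6, had -0.60, ANXA4 and ANXA5 had -0.54 and -0.52, and ANXA7 had -0.14, with edgeR adjusted p-values of 0.272, 0.352, 0.383 and 0.816. ANXA9 had 0.45 to 0.68 RPM in these 4 libraries and was not tested.

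Receptors and other binding partners of S100 proteins formed a further list. Of 14 genes, all tested, 0 passed an adjusted p of 0.05, and DLC1 and EZR had an unadjusted p below 0.05, both lower, a share near the 10.8% of all genes. DLC1, a RhoGAP that S100A10 binds, had -1.27 ± 0.45 (SE, edgeR adjusted p = 0.202), with -1.69 without eGFP replicate 1 and -0.63 without eGFP replicate 2. EZR, which encodes ezrin, had -0.56 ± 0.23 (SE, edgeR adjusted p = 0.251), and COPS5 had -0.46 (edgeR adjusted p = 0.314). Over the main fit and its alternatives EZR ran from -0.76 to -0.34 and COPS5 from -0.62 to -0.29. The median of the list was -0.16.

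The neighbourhood on chromosome 1 was then read as a whole. Of 36 measured genes of the epidermal differentiation complex, which lies between S100A11 and S100A9, 22 had no read and 4 were tested. SPRR1B, a small proline-rich precursor of the cornified envelope, had 182 and 98.3 RPM in eGFP, 49.8 RPM in wt replicate 2, and 13.8 and 14.4 RPM in GIRK1. It passed the test with a log2 fold change of -3.37 ± 0.37 (SE, edgeR adjusted p = 0.0137). The call was lost with wt replicate 2 pooled into the controls, at -3.01. With all 6 libraries in the fit the value was -3.36, and 0 of 11546 genes passed there. SPRR1A and LCE1B had -1.38 and 1.49 and did not pass (edgeR adjusted p = 0.337 and 0.216). When a library was left out SPRR1A ran from -2.12 (without GIRK1 replicate 1) to -0.58 (without eGFP replicate 1). LCE1B ran from 0.77 (without GIRK1 replicate 1) to 2.18 (without eGFP replicate 2). Among the other genes inside the interval and up to 500 kb beyond it, 18 were tested, and all of these lay outside the interval. They therefore do not speak to the stretch between the S100A genes. Of the 18, 0 had an unadjusted p below 0.05 in edgeR, compared to 2163 of all 11279 genes. Their log2 fold changes ran from -0.65 to 0.60 with a median of 0.05. RAB13, INTS3 and DENND4B had the smallest p of these, with -0.50, 0.60 and 0.48, and INTS3 had 0.86 without eGFP replicate 2. S100A10 and S100A11, which are 38.1 kb apart, had -1.28 and 0.17.

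**Figure D3:**
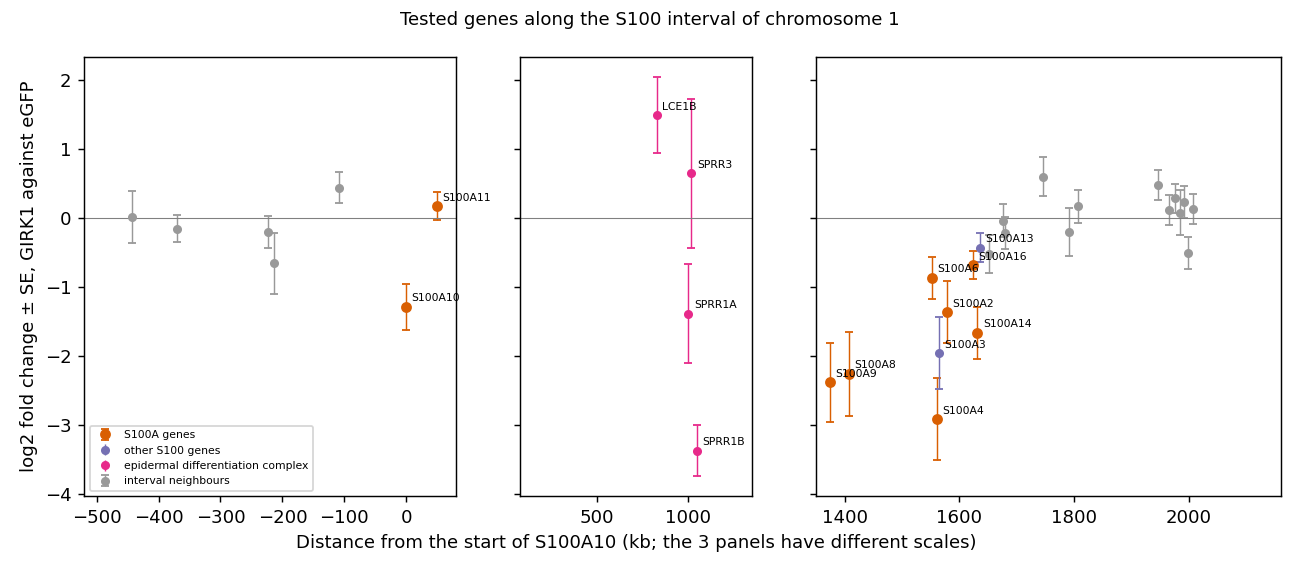
Log2 fold change, GIRK1 against eGFP, with SE (bars), of the tested genes along chromosome 1 by distance from the start of S100A10 in kb, in 3 panels of different scale. S100A4, S100A9 and S100A8 lie lowest of the S100A genes, SPRR1B lies at -3.37, and the grey neighbouring genes lie between -0.65 and 0.60.

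**Figure D4:**
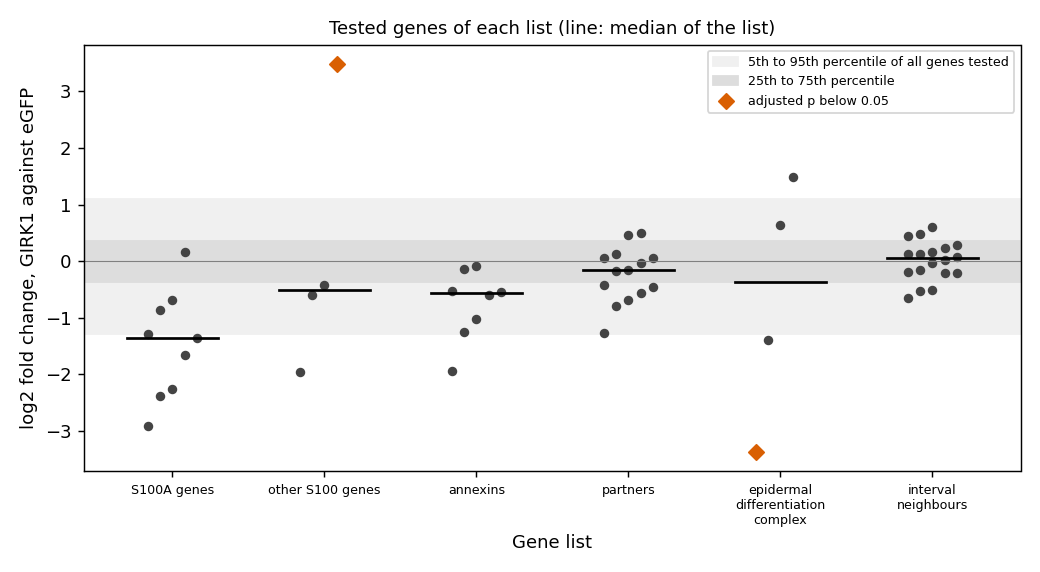
Log2 fold change, GIRK1 against eGFP, of the tested genes of each list (points), with the median of each list (line) and the 5th to 95th and 25th to 75th percentiles of all 11279 genes tested (shading). Diamonds mark an adjusted p below 0.05, which S100P (3.48) and SPRR1B (-3.37) reached, while none of the 9 S100A genes did.

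Compared to the 5 libraries above, the library labelled wt replicate 1 had a lower sum of S100A transcripts, 2016 RPM. In wt replicate 2 the sum was 10997 RPM, of which S100A2 alone made 6980 RPM. S100A2, S100A8 and S100A9 had 0 reads in it, against 111969, 498 and 1566 reads in wt replicate 2, which makes them at least 5831-fold, at least 25.9-fold and at least 81.6-fold lower in RPM at a floor of 3 reads. S100A4, S100A6, S100A14 and S100A16 were 7.40-, 6.02-, 3.55- and 2.24-fold below wt replicate 2, at 4.8, 17.6, 247 and 489 RPM. In all, 7 of 9 genes were at least 2-fold lower (20.8% of all genes) and 0 were at least 2-fold higher (23.7% of all genes), and the library was the lowest of the 6 for 8 of 9 genes (35%). The exceptions to the 2-fold count were S100A10, with 132 RPM compared to 126 RPM in wt replicate 2, and S100A11, with 1126 RPM and a 1.46-fold lower level. S100A10 alone was not lowest in this library. S100P was the converse, with 697 RPM in this library and at most 60.2 RPM in any other. These are single libraries with no replicate check and no test. With this library counted as wt in a fit of all 6, none of the 9 genes passed in either comparison of GIRK1. Of all 11546 genes tested there 0% passed, so that this is not particular to S100A. Against eGFP, 2 rather than 8 of the 9 had an unadjusted p below 0.05 in edgeR, and the biological coefficient of variation rose from 0.240 to 0.468.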

How the data were processed

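RNA of 6 libraries labelled MCF10A (2 wt, 2 eGFP and 2 GIRK1) was amplified by the authors with the Ion AmpliSeq Transcriptome kit. It was sequenced on an Ion S5 XL and mapped to AmpliSeq_Transcriptome_21K.v1 in the Ion Torrent suite. The deposited values are raw read counts per amplicon, in total and by strand, and RPM, the authors' counts scaled to 1000000 reads per library. The 10 spike-in rows held 0 reads. A single amplicon stands for each gene, so that levels are not compared between genes, isoforms are not told apart, and amplicons of related genes could share reads.

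Counts were tested with edgeR 4.0.16 in R 4.3.3 (TMM, filterByExpr, quasi-likelihood test) and adjusted by Benjamini-Hochberg over all genes kept. GIRK1 was compared to eGFP in a fit of 4 libraries, the groups that the study compared by fold and coefficient of variation. GIRK1 and eGFP were compared to wt replicate 2 in a fit of 5. The library labelled wt replicate 1 was set beside wt replicate 2 without a test, by a 2-fold ratio of RPM among genes averaging 10 reads or more over both. Groups came from the labels. The genes and lists were chosen with earlier results of these data known. Named by rule were the 10 genes and KCNJ3, other S100 genes and annexins averaging 10 reads or more, and the 3 genes of smallest p from each further list. DESeq2 1.42.0, other scalings, filters and library sets were alternatives, and the scripts were tested on simulated counts. Exact (Clopper-Pearson) 95% intervals and the floor of 3 reads cover counting error only. Promoter sequences are from RefSeq (GRCh38.p14) and gene positions from GENCODE (GRCh38), the genome build behind the authors' reference being not given in the sources used here.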

Additional observations from a re-analysis of the deposited data

How the results depend on the processing

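Nothing showed that replicate numbers pair the libraries. Deviations from the group means of same-numbered eGFP and GIRK1 libraries correlated at 0.197 over genes, which with 2 libraries a group does not settle it, and the values for wt (0.109 with eGFP, 0.029 with GIRK1) rest on the library labelled wt replicate 1 and cannot speak to pairing. With the replicate number as a block, 5 S100A genes passed an adjusted p of 0.05 for GIRK1 against eGFP (5.23% of all genes) and 2 for GIRK1 against wt replicate 2 (0.654%). For GIRK1 against eGFP 6 passed with no filter on low counts (5.92% of all genes), 6 in DESeq2 (6.15%) and 5 by the 2-fold rule of the study (5.38%). In contrast, 0 passed under the other scalings, with 5 or 6 libraries in the fit, with pooled controls or with at least 10 reads in every library. Of all genes 0% to 1.65% passed in those fits. All genes called numbered 172 in this comparison, 590 with the block, 881 with no filter, 694 in DESeq2, 111 with at least 10 reads and 0 with 6 libraries. The 9 S100A genes kept their sign in every alternative of this comparison, and 2 had an unadjusted p below 0.05 in edgeR with 6 libraries and 6 with pooled controls.

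For GIRK1 against wt replicate 2, 1 gene passed with no filter (0.875% of all genes) and 1 in DESeq2 (1.15%). For eGFP against wt replicate 2, 3 S100A genes had an unadjusted p below 0.05 in edgeR with no filter, and 3 in DESeq2. The share of all genes at that unadjusted p was not counted in these fits. At an adjusted p of 0.05, 0.0395% of all genes passed with no filter and 0.0424% in DESeq2. Where a library was left out, effect sizes alone are given. Signs turned with 6 libraries for GIRK1 against wt in S100A2 (0.62), S100A6 (0.54), S100A14 (0.32), S100A16 (0.37) and S100P (-2.61), where both wt libraries form the control. For eGFP against wt replicate 2 they turned in S100A8 (-0.60 with the block, -0.66 without eGFP replicate 1) and S100A9 (-0.78 with the block, -0.86 without eGFP replicate 1, -0.032 scaled by total reads). When a library was left out, S100A8 ranged from -0.66 to 0.88 and S100A9 from -0.86 to 0.62. For GIRK1 against eGFP they turned in ANXA7 (0.15 without eGFP replicate 2, 0.12 without GIRK1 replicate 1, range -0.47 to 0.15) and ANXA1 (0.031 without GIRK1 replicate 1, range -0.20 to 0.031). Apart from the left-out libraries, whose values show it, the cause was not tested. In the library labelled wt replicate 1, 7 genes stayed at least 2-fold lower under TMM scaling and a minimum of 50 reads, and 5 were at least 4-fold lower. Chosen after seeing the data, eGFP replicate 2 in place of wt replicate 2 also gave 7. This library differed widely from the others. Over 9212 genes under TMM scaling, 39.8% were at least 2-fold apart from wt replicate 2 in either direction, and 38.9% from eGFP replicate 2. A share of all genes at 4-fold is not given here. With no control left out, 8 genes lay below all controls (19.5% of all genes) and S100A11 lay above all of them. Leaving out a control could therefore not change this count and is no further check. Where 1 library was left in an arm, it was assumed to vary like the others. S100P was not kept with at least 10 reads in every library, and S100A7 could not be tested in any.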

Other observations

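The S100A8 amplicon was read on 1 strand only. All of its 498 reads in wt replicate 2, 269 and 201 reads in eGFP and 124 and 46 reads in GIRK1 were forward reads. Of 10684 genes with at least 100 reads summed over the libraries, 22 had no reverse reads and 6 no forward reads, together 0.262%.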
